A study of Mus musculus with 2 samples.

Results

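Cytokine signalling genes were followed across innate lymphoid cells of the mouse small intestine: the transcription factors Stat3, Stat4 and Stat5a, the inhibitors Socs1, Socs2, Socs3 and Cish, and the kinases Pim1 and Pim2. These 9 genes were taken by symbol from the 31053 features listed for both libraries, and all 9 were found. In Zfp36-deficient cells Stat3 and Pim2 were 1.5-fold or more higher in ILC2 and ILC3, Pim2 also in ILC1/NK, and Cish in ILC2. Socs2 was higher by this measure in ILC1/NK and myeloid cells, and Socs3 in myeloid cells and, at a low level, in ILC2. No member was 1.5-fold or more lower in any of the 7 cell classes compared.

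Live CD45+ CD90.2+ CD127+ cells without lineage markers, CD3 or TCRβ were sorted from the small-intestinal lamina propria and profiled by droplet-based sequencing of 3′ transcript tags. The wild-type (WT) group was cells of 4 C57BL/6 mice in 1 library, and the knockout group was cells of 4 Zfp36-/- mice of the same strain label in the other library. The product of Zfp36, tristetraprolin (TTP), binds AU-rich stretches in 3′ UTRs and speeds the loss of the RNA. No Cre driver, age or sex is named for these samples. Cells of the 4 mice of a genotype carry no label of the animal, so each genotype is a single measurement, no test between genotypes was possible, and every interval given here is an exact 95% interval that covers counting error only.

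In this pathway a cytokine receptor activates Janus kinases (JAKs), which phosphorylate STAT proteins, and STAT dimers then enter the nucleus and bind promoters with a palindromic GAS-type motif. The SOCS proteins and CISH are induced by STATs and block the receptor or its kinases, and the PIM kinases are induced in the same way, are active without a phosphorylation step and promote survival and growth. In the gut, IL-23 acts through STAT3 in ILC3, IL-12 through STAT4 in ILC1 and natural killer (NK) cells, and IL-7, IL-2 and TSLP through STAT5 in ILCs.

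Cells were assigned to classes by the number of marker genes with a unique molecular identifier (UMI): ILC2 (400 WT and 923 knockout cells), ILC3 (846 and 1085), ILC1/NK (182 and 198), cells with the markers Cpne7 and Acbd7 (90 and 85) and myeloid cells (88 and 347). ILC3 were divided into a Ccr6-type subset (351 and 382 cells), an NCR+ subset (267 and 326) and a Rasl11a/Hmgn3 subset (45 and 106), the rest having markers of both or of none. A level is the class's summed UMIs of a gene scaled to the total UMIs of that class (CPM). A ratio is the log2 of knockout over WT level, and a gene was called higher or lower at 1.5-fold or more with at least 50 UMIs over both libraries, in classes of at least 50 cells in each.

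Total depth was 24721524 UMIs over 3593 barcodes in WT and 27733804 UMIs over 3522 barcodes in knockout, and 3360 and 3334 cells were kept, at medians of 5292.5 and 5336.5 UMIs. The libraries shared 2 barcodes. Zfp36 had a ratio below 0 in every class, with 1932 WT and 1832 knockout UMIs in ILC2 (ratio -1.18, -1.28 to -1.09) and 4521 and 1548 UMIs in ILC3 (-1.82, -1.91 to -1.74). These are 3′ tags and the site of the deletion is not given in the sources used here, so the remaining tags do not check whether the protein was made. Despite the gate, 1170 WT and 47 knockout cells were T cells by their markers, and B or plasma cells (117 and 158) and myeloid cells were present in both libraries. Scrublet marked 37 WT and 5 knockout cells as doublets, so doublets were hardly removed from the knockout library. In ILC3, macrophage markers summed to 41.6 CPM (WT) and 502 CPM (knockout), and B/plasma markers to 150 and 648 CPM. With at most 1 marker of these lineages allowed, which kept 758 WT and 991 knockout ILC3, the ILC3 ratios were 0.87 for Stat3, 1.44 for Pim2 and -0.51 for Pim1, beside 0.89, 1.36 and -0.49 in the whole class. Xist was present without Y-linked UMIs in 3294 WT and 2575 knockout cells, leaving 66 and 759 others, so the pools differed in sex makeup.

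The sequences through which STATs are known to act on these genes, and the sequence TTP is known to bind, were read first, because they are the regulatory sites that the ratios below can be set beside. Each site is shown within 30 bases of the GRCm38 (mm10) genome and written 5′ to 3′ on the gene's strand. In RefSeq promoters of GRCm38.p6, 300 bases from 250 before to 50 after an annotated start, the GAS-type motif TTCNNNGAA, which is its own reverse complement, was in 8.3% of 32851 promoters. It was in the promoters of 2 of the 8 members with an entry (11 promoters in all), Cish at chr9:107296654-107296683 on the plus strand and Socs3 at chr11:117969502-117969531 on the minus strand, with the motif in capitals.
Cish promoter: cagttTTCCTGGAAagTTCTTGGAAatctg
Socs3 promoter: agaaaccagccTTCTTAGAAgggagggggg

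Cish carried 2 such motifs, the first beginning at its RefSeq start and the second 11 bases further, while the Socs3 motif began 154 bases before its RefSeq start. The gene spans given below are from GENCODE and begin further upstream for both genes, so both windows lie inside them. The core of the TTP site, TATTTAT, searched on the transcript strand only, was in the longest 3′ UTR of a protein-coding transcript in 27.6% of 20982 genes (GENCODE M21). Pim1 had 4 sites, a number that 1.8% of genes reached, Cish 3 (4.1%), Socs3 2 (10.4%) and Socs2 1, while Stat3, Stat4, Stat5a, Socs1 and Pim2 had 0. In Pim1, Cish and Socs3 neighbouring sites shared letters, so the runs of capitals hold 4, 3 and 2 overlapping sites. The windows lie at chr17:29495690-29495719 (plus) for Pim1, chr9:107301376-107301405 (plus) for Cish, chr11:117966136-117966165 (minus) for Socs3 and chr10:95412062-95412091 (minus) for Socs2.
Pim1 3′ UTR: ttaatgTATTTATTTATTTATTTATttggt
Cish 3′ UTR: ttatacagTATTTATTTATTTATtctcctt
Socs3 3′ UTR: ttgcacataTATTTATATTTATactcagaa
Socs2 3′ UTR: tgaccatgcttgTATTTATccctcgtctta

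The number of members called was then counted in each class and set beside all genes with at least 50 UMIs. In ILC2, 4 of 9 members were higher (Stat3, Socs3, Cish and Pim2) and 0 lower, where 17.3% of 8785 genes were higher and 3.08% lower. In ILC3, 2 of 9 were higher (Stat3 and Pim2) and 0 lower, where 15.3% of 9513 genes were higher and 4.2% lower, a count of members near that background. In the Ccr6-type subset, 4 of the 8 members with enough UMIs were higher (Stat3, Stat4, Stat5a and Pim2) and 0 lower, against 18.9% higher and 4.99% lower of 7072 genes. In the NCR+ subset, 3 of 9 were higher (Stat3, Socs3 and Pim2) and 0 lower, against 16.0% and 4.38% of 6985 genes. In the Cpne7/Acbd7 cells, 2 of the 6 members with enough UMIs were higher (Stat3 and Cish) and 0 lower, against 18.3% and 5.37% of 3315 genes. In ILC1/NK, 2 of 9 were higher (Socs2 and Pim2) and 0 lower, against 15.8% and 4.64% of 5344 genes. In myeloid cells, 2 of 9 were higher (Socs2 and Socs3) and 0 lower, against 15.6% and 7.87% of 9059 genes. All genes leaned upward: the median ratio of all genes lay between 0.11 in myeloid cells and 0.18 in ILC2. The median of the members was 0.38 in ILC2, 0.37 in ILC3 and 0.54 in ILC1/NK, beside 0.18, 0.15 and 0.14 over all genes. Relative to the median of all genes, the counts of higher members were 2 in ILC2, 2 in Ccr6-type ILC3 and 0 in Cpne7/Acbd7 cells, with Stat3 at 0.54 and Cish at 0.57 in ILC2, under the size rule.

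**Figure D1:**
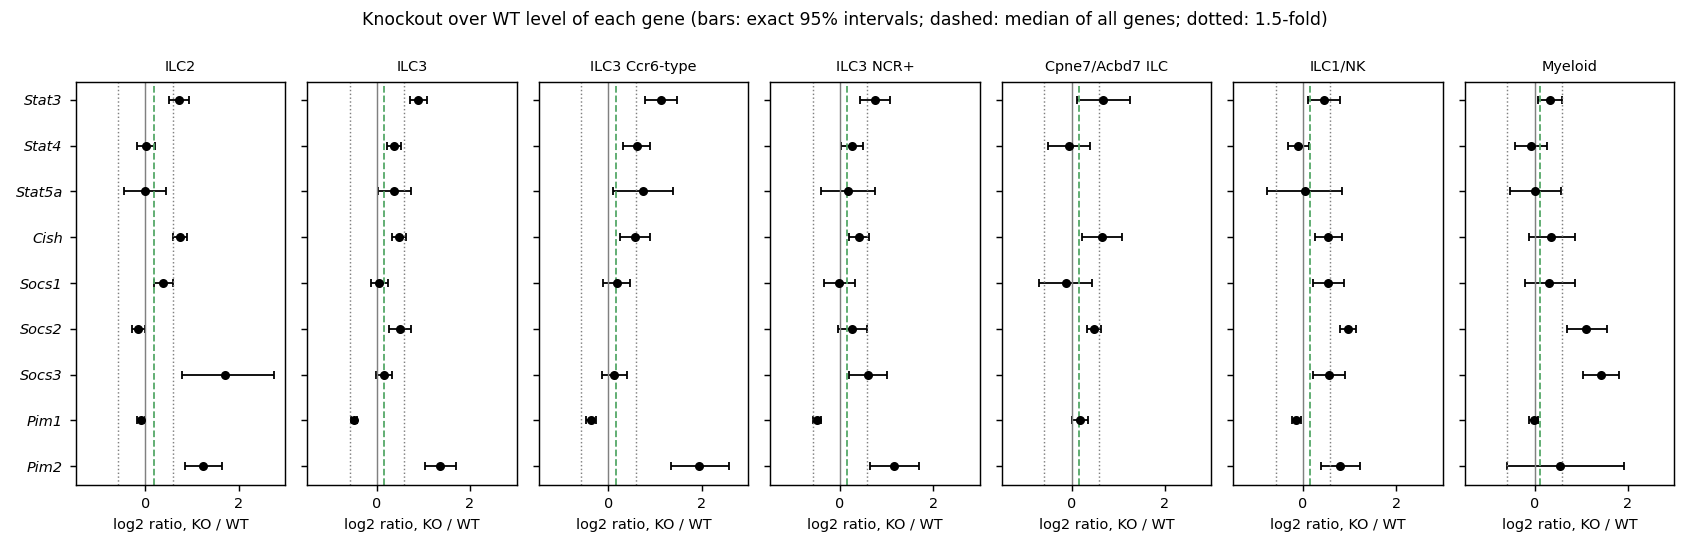
Log2 ratio of knockout over WT level (x axis) for each of the 9 genes (y axis) in 7 cell classes; points are ratios of summed UMIs for genes with at least 50 UMIs, bars exact 95% intervals, the dashed line the median of all genes and the dotted lines 1.5-fold. Stat3 and Pim2 lie right of the upper dotted line in ILC2, ILC3 and both ILC3 subsets, and Pim1 lies left of 0 in every class but the Cpne7/Acbd7 cells, at -0.49 in ILC3.

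**Figure D2:**
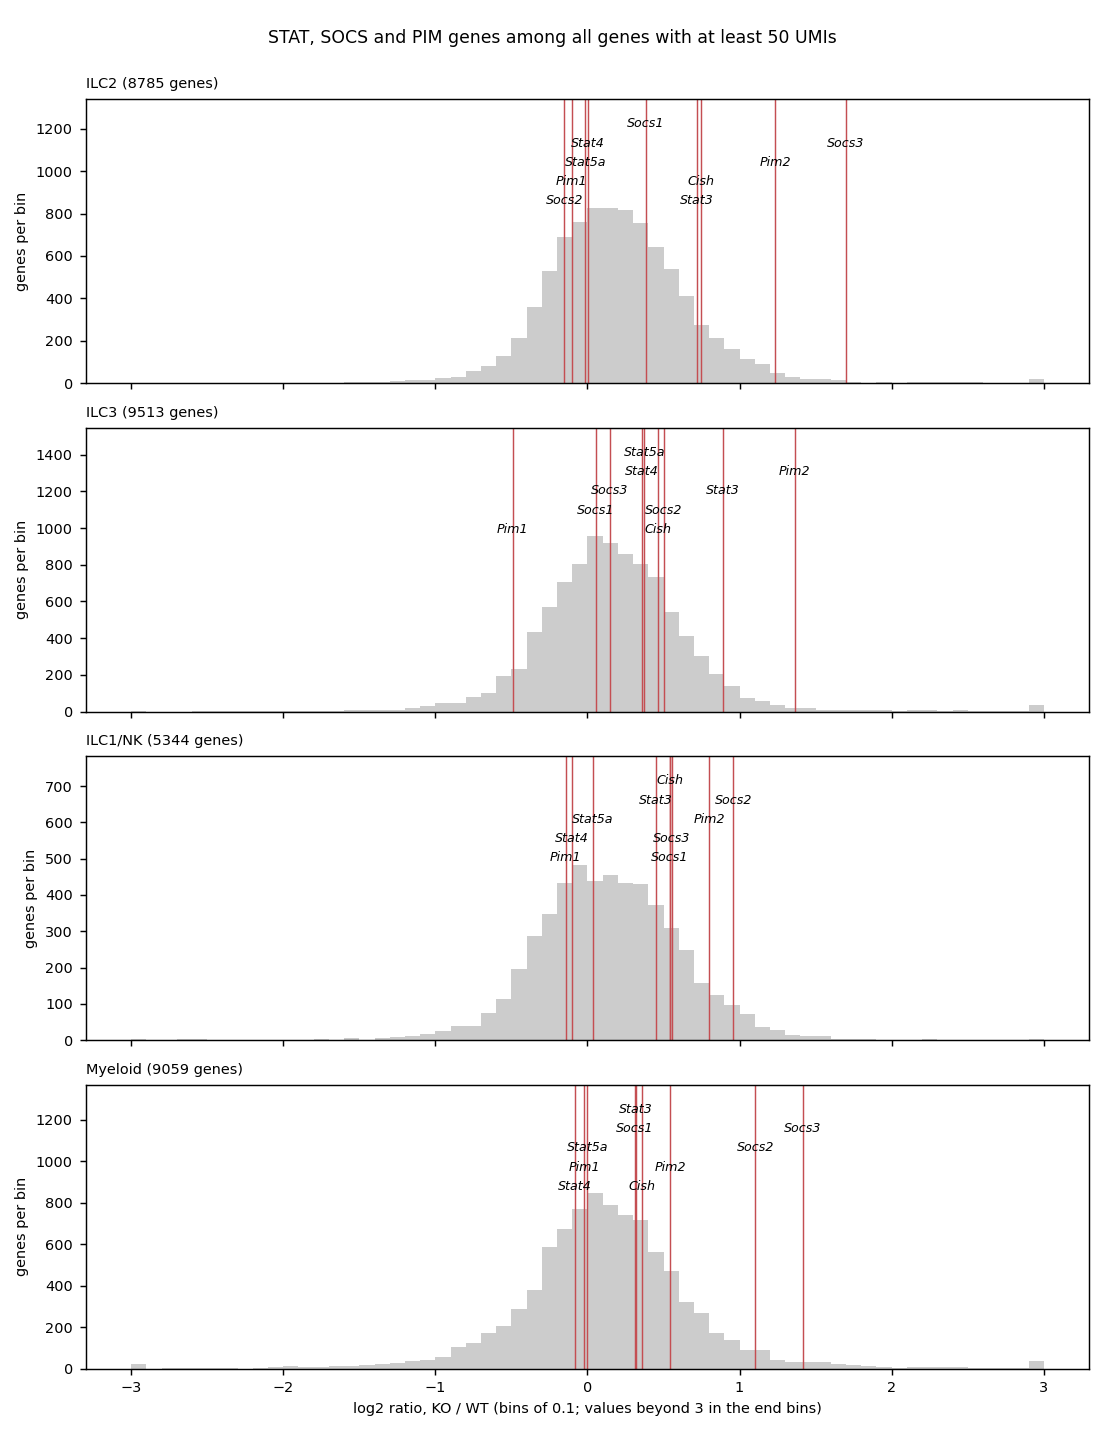
Histograms of the log2 ratio of knockout over WT (x axis, bins of 0.1) for all genes with at least 50 UMIs (y axis, genes per bin) in ILC2, ILC3, ILC1/NK and myeloid cells; red lines mark the members. Most members lie within the bulk of all genes, with Socs3 at 1.70 and Pim2 at 1.24 in the right tail in ILC2, and Socs3 at 1.42 there in myeloid cells.

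Stat3 (ENSMUSG00000004040; chromosome 11, 100885098 to 100939540, minus strand), the STAT of IL-23, IL-6 and IL-10 receptors, was higher in knockout ILC2, ILC3 and Cpne7/Acbd7 cells. In ILC2 it stood at 93.5 CPM (251 UMIs) in WT and 154 CPM (890 UMIs) in knockout, 1.65-fold higher (1.43 to 1.90). In ILC3 it stood at 84.3 CPM (332 UMIs) and 156 CPM (746 UMIs), 1.85-fold higher (1.63 to 2.12). The intervals of the level did not overlap between libraries in ILC2 or in either ILC3 subset. The Ccr6-type subset stood at 69.7 and 152 CPM, 2.18-fold higher (1.72 to 2.78), and the NCR+ subset at 93.1 and 156 CPM, 1.68-fold higher (1.35 to 2.10). With knockout ILC3 subsets weighted to their WT shares, the ILC3 ratio was 0.90 beside 0.89 as measured. At equal depth, with each cell thinned to 2000 UMIs, 15.3% (11.9 to 19.3) of WT and 25.6% (22.8 to 28.5) of knockout ILC2 had a Stat3 UMI, and 15.5% (13.1 to 18.1) and 25.2% (22.6 to 27.9) of ILC3 (398 and 915 ILC2 and 827 and 1041 ILC3 were deep enough). Without thinning the ILC2 shares were 42.5% and 57.6%. B and plasma cells, which had the lowest Stat3 level, showed shares of 0.855% and 3.16% at that depth. Their median depths were 37237 and 31081 UMIs against 6229.5 and 5834 in ILC2. Thinning thus kept a smaller part of each B or plasma cell's UMIs, so their shares do not measure UMIs that strayed into ILCs from other cells.

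The Stat3 level in WT changed in small steps over the classes, but T cells (125 to 143 CPM) lay above ILC2 (82.2 to 106) and Ccr6-type ILC3 (57.0 to 84.4). The order ran from T cells (134 CPM) and ILC1/NK (131) through macrophages (128), dendritic cells (109), ILC2 (93.5), NCR+ ILC3 (93.1) and Cpne7/Acbd7 cells (79.8) to Ccr6-type (69.7) and Rasl11a/Hmgn3 ILC3 (61.6), and no neighbours in it differed beyond their intervals until B and plasma cells (18.0). In knockout, ILC2 (154 CPM) and Ccr6-type ILC3 (152) stood beside NCR+ ILC3 (156) and macrophages (171), again without a gap between neighbours. In Cpne7/Acbd7 cells the 47 WT and 66 knockout UMIs gave 1.60-fold (1.09 to 2.38), and 16.7% of the knockout UMIs came from 1 cell. ILC1/NK (131 and 178 CPM, ratio 0.45, 0.11 to 0.79) and myeloid cells (119 and 149 CPM, ratio 0.32, 0.07 to 0.58) stayed under the size rule.

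**Figure D3:**
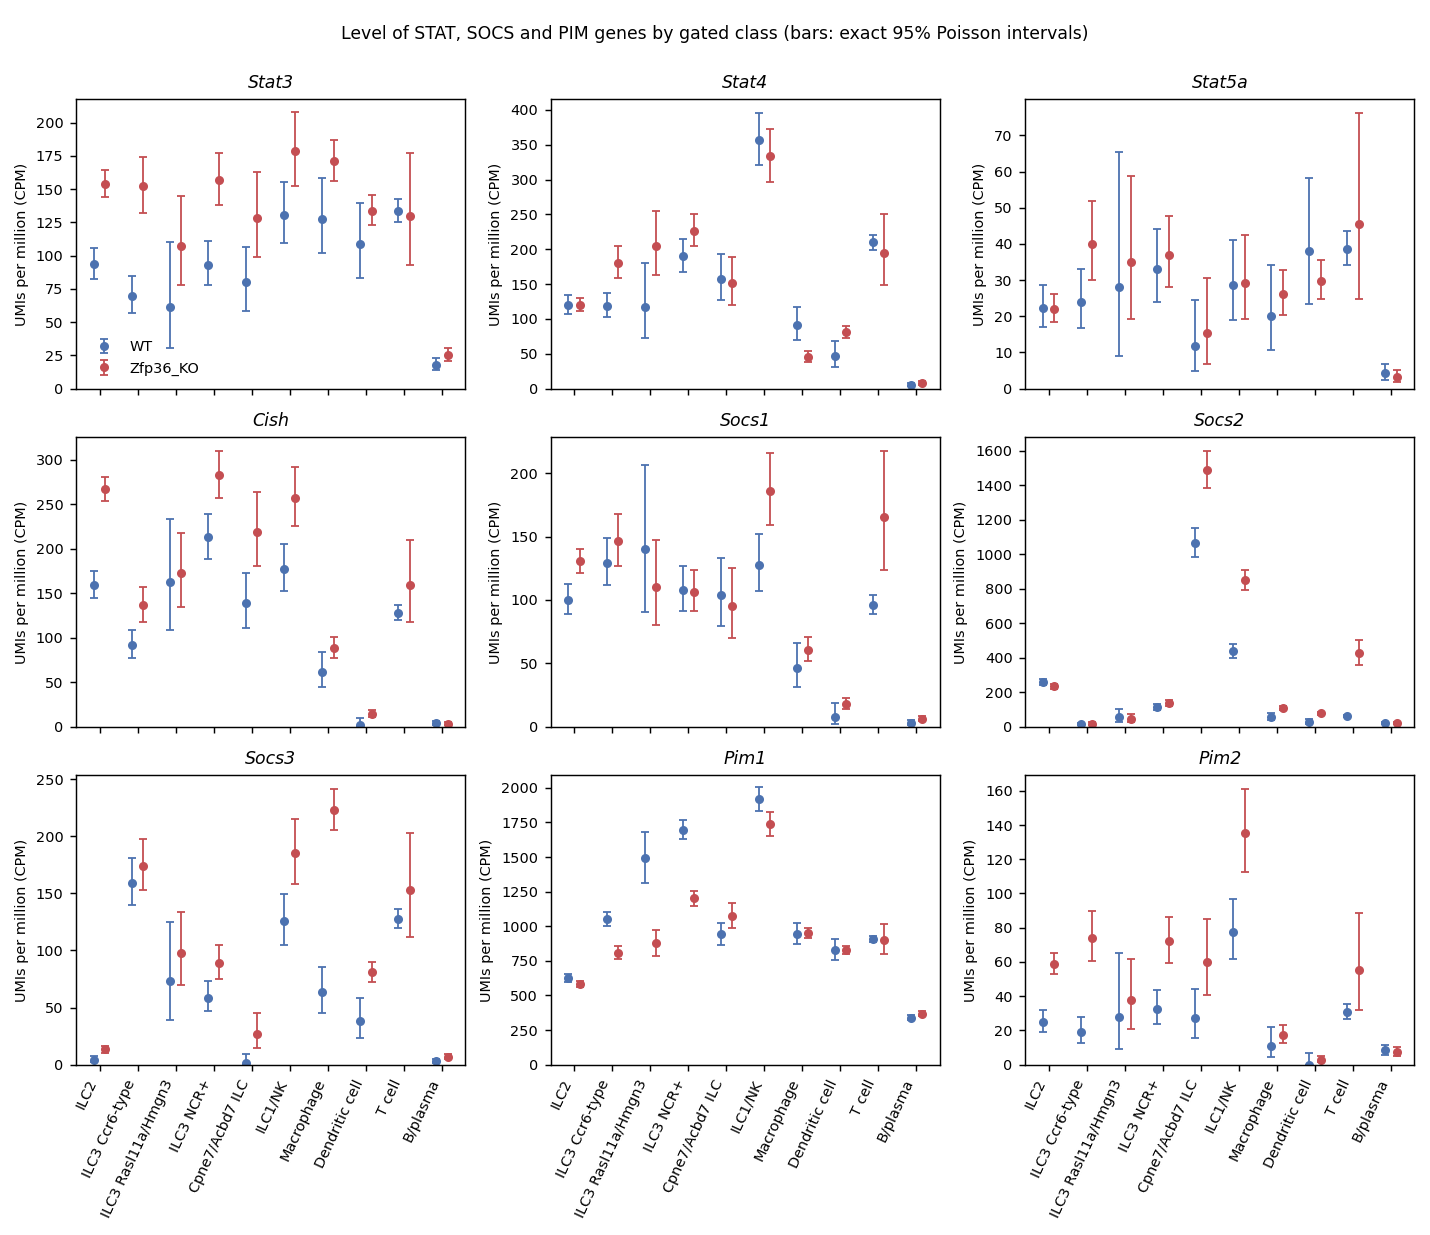
Level in CPM (y axis, linear from 0) of each of the 9 genes in 10 gated classes (x axis) in the WT (blue) and knockout (red) library; bars are exact 95% Poisson intervals. Stat3 in WT lies between 61.6 and 134 CPM outside B and plasma cells, whereas Socs2 reaches 1063 CPM in Cpne7/Acbd7 cells and 14.0 CPM in Ccr6-type ILC3.

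Stat4 (ENSMUSG00000062939; chromosome 1, 51987148 to 52107189, plus strand), which carries the IL-12 signal towards interferon-γ, was read most in ILC1/NK. ILC1/NK had 357 CPM (363 UMIs) in WT and 333 CPM (308 UMIs) in knockout, the highest level of any class in each library, apart from the next class beyond the intervals. In WT T cells (210 CPM) and NCR+ ILC3 (190) followed, then Cpne7/Acbd7 cells (158), ILC2 (120) and Ccr6-type ILC3 (119), whose neighbours overlapped. In ILC2 the level was 120 CPM in each library, a ratio of 0.00. Of the 7 classes compared, Ccr6-type ILC3 was the one with a call, at 119 and 180 CPM, 1.52-fold (ratio 0.60; 1.25 to 1.85). This call stayed past the size rule in 6 of 10 alternatives and fell short in the others, down to 0.43 relative to the median of all genes. Over all ILC3 the ratio was 0.36 (602 and 936 UMIs), and among ILC3 with no T cell marker UMI at all, 177 WT and 323 knockout cells, it was 0.90. Of those, 123 WT and 173 knockout cells were Ccr6-type and 16 and 37 NCR+, so subset makeup differed between libraries and from all ILC3. Within the Ccr6-type cells among them the ratio was 1.12. Over all ILC3, T cell markers moved with genotype, at 1081 CPM in WT and 822 CPM in knockout. The part of T cell markers and of subset makeup in the Stat4 ratio was not tested further. Macrophages, a part of the myeloid class, went the other way, with 90.9 CPM (59 UMIs) in WT and 45.8 CPM (125 UMIs) in knockout. This was 1.98-fold lower (1.43 to 2.72) and past the size rule, and 15.3% of those WT UMIs came from 1 cell. T cell markers in these macrophages summed to 888.9 CPM (WT) and 287.5 CPM (knockout), and their part in this fall was not tested. Dendritic cells, too few for a call with 27 WT cells, had a Stat4 ratio of 0.78 (0.20 to 1.41).

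Stat5a (ENSMUSG00000004043; chromosome 11, 100859351 to 100885169, plus strand), 1 of the pair of STAT5 genes used by IL-7, IL-2 and TSLP receptors, was sparse, with 619 WT and 658 knockout UMIs over all kept cells. In ILC2 it stood at 22.3 and 22.1 CPM, a ratio of -0.01, and in ILC3 at 28.4 and 36.9 CPM, a ratio of 0.37. The Ccr6-type subset had 36 and 55 UMIs, 23.9 and 39.8 CPM, which gave 1.67-fold (1.08 to 2.61), an interval that reached down past the median of all genes in that class. Its annotated 3′ end overlaps that of Stat3 by 72 bases on opposite strands, and whether the counting used strand is not given in the sources used here, so tags from that overlap cannot be told apart. At equal depth the shares of cells with a Stat5a UMI ran from 2.22% to 9.38% over the ILC classes and libraries, with 0.855% and 1.27% in B and plasma cells.

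**Figure D4:**
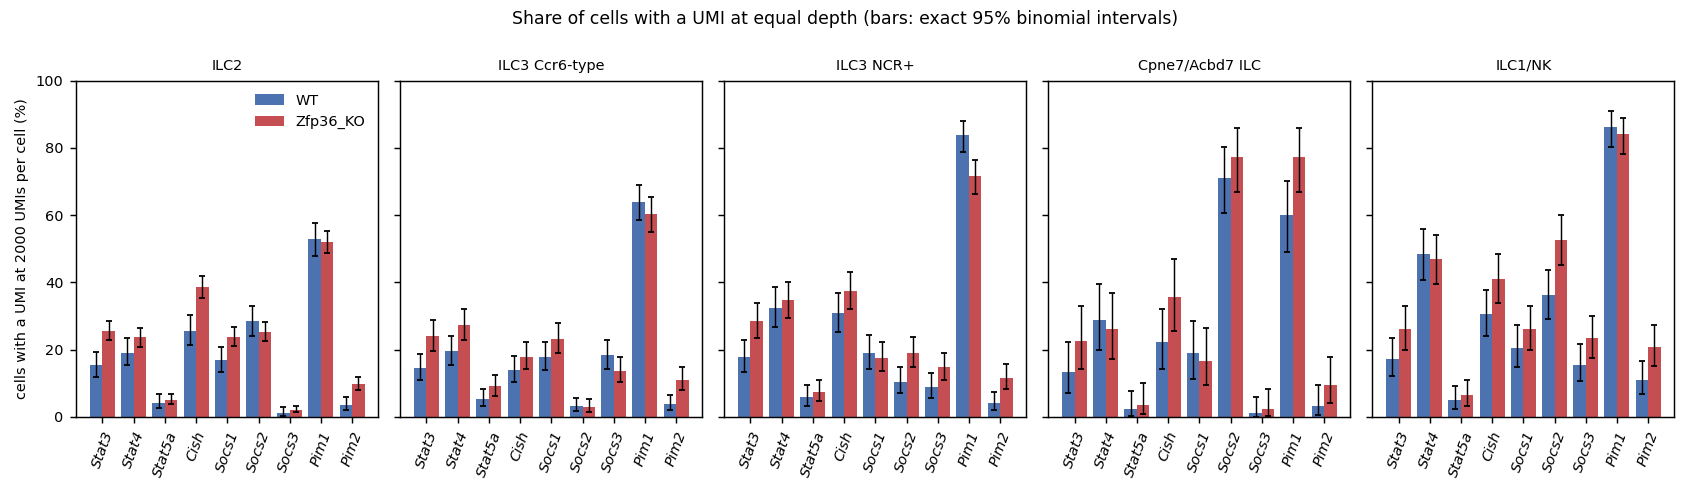
Share of cells with at least 1 UMI of each gene (y axis, percent) after thinning each cell to 2000 UMIs in 5 ILC classes of the WT (blue) and knockout (red) library; bars are exact 95% binomial intervals. Stat3 and Pim2 shares in ILC2 do not overlap between libraries, and Socs2 reaches 71.1% and 77.4% in Cpne7/Acbd7 cells.

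Among the inhibitors, Cish (ENSMUSG00000032578; chromosome 9, 107296026 to 107302784, plus strand), an inhibitor of IL-2 family signalling and the member with GAS-type motifs at its RefSeq start, was higher in knockout ILC2. It stood at 159 CPM (428 UMIs) in WT and 267 CPM (1546 UMIs) in knockout ILC2, 1.68-fold higher (ratio 0.75, 0.59 to 0.90). In these cells 25.6% (21.4 to 30.2) of WT and 38.6% (35.4 to 41.8) of knockout had a Cish UMI, without overlap. The UMIs were not held by few cells, since the 5% of cells with the most Cish held 23.6% and 20.5% of them. In Cpne7/Acbd7 cells it stood at 139 and 219 CPM, 1.57-fold (1.17 to 2.12). ILC3 stayed under the rule at 149 and 206 CPM (1.38-fold, 1.24 to 1.53), as did ILC1/NK at 177 and 257 CPM (1.45-fold, 1.19 to 1.77). Among ILC3 without any T cell marker UMI the Cish ratio was 1.07 beside 0.46 in all ILC3. As given for Stat4, the subset makeup of those cells differed between libraries, and within their Ccr6-type cells the Cish ratio was 1.39. In WT NCR+ ILC3 had the highest level (213 CPM), overlapping ILC1/NK (177), and Ccr6-type ILC3 (92.3) stood lowest among the ILC classes. Cish was near 0 in B and plasma cells (3.95 and 2.92 CPM) and in WT dendritic cells, with 1.81 CPM.

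Socs1 (ENSMUSG00000038037; chromosome 16, 10782240 to 10785536, minus strand), which inhibits JAKs downstream of interferons and common gamma chain cytokines, was called in no class. ILC2 stood at 100 and 131 CPM (ratio 0.38, 0.18 to 0.59), ILC3 at 118 and 122 CPM (1.04-fold, 0.92 to 1.18) and ILC1/NK at 128 and 186 CPM (1.46-fold, 1.15 to 1.84). Its WT level over the ILC and T cell classes ran from 96.4 CPM in T cells to 140 CPM in Rasl11a/Hmgn3 ILC3, with no neighbours apart beyond their intervals. Further apart in this order, Ccr6-type ILC3 (112 to 149 CPM) lay above T cells (89.2 to 104). Macrophages (46.2 CPM) lay below all ILC and T cell classes, and dendritic cells (7.24 CPM) and B and plasma cells (2.97 CPM) lower again.

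Socs2 (ENSMUSG00000020027; chromosome 10, 95385362 to 95417180, minus strand), known as the brake on growth hormone receptor signalling and a STAT5 target, spanned a wide range among ILC classes. WT levels were 1063 CPM (982 to 1150) in Cpne7/Acbd7 cells, 437 CPM in ILC1/NK, 259 CPM in ILC2, 113 CPM in NCR+ ILC3 and 14.0 CPM (21 UMIs) in Ccr6-type ILC3. Each of the first 4 classes lay apart from the next beyond its interval, and T cells (60.0 CPM), Rasl11a/Hmgn3 ILC3 (56.0) and macrophages (55.5) overlapped. The knockout library kept the 2 highest classes in place, at 1491 CPM (1388 to 1600) in Cpne7/Acbd7 cells and 849 CPM in ILC1/NK, with the 47 T cells at 425 CPM ahead of ILC2 at 233 CPM. At equal depth, 71.1% (60.6 to 80.2) of WT and 77.4% (67.0 to 85.8) of knockout Cpne7/Acbd7 cells had a Socs2 UMI, against 3.20% and 3.03% of Ccr6-type ILC3 and 5.13% and 1.90% of B and plasma cells. As for Stat3, these B and plasma cell shares do not measure stray UMIs. By level, Ccr6-type ILC3 overlapped B and plasma cells in each library, at 14.0 and 21.5 CPM in WT and 17.4 and 21.9 CPM in knockout.

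Between libraries, ILC1/NK showed the call for Socs2, with 444 WT and 785 knockout UMIs, 1.94-fold (1.73 to 2.19), and a share of cells that went from 36.1% (29.1 to 43.6) to 52.7% (45.3 to 60.0), or from 54.4% to 64.7% without thinning. T cell markers summed to 1878 CPM in WT ILC1/NK and to 1352 CPM in the knockout. Cpne7 and Acbd7 summed to 89.5 and 110 CPM there, ILC2 markers to 333 and 515 CPM and ILC3 markers to 1531 and 1235 CPM. The part of class makeup in the Socs2 ratio was not tested. Cpne7/Acbd7 cells gave 1.40-fold (1.26 to 1.56), with overlapping shares of cells, while macrophage markers in those cells summed to 28.9 CPM (WT) and 1002 CPM (knockout), and with at most 1 marker of the other lineages allowed the ratio was 0.59 beside 0.49. In ILC2 the ratio was -0.15 (-0.28 to -0.02), at 259 and 233 CPM. Socs2 in ILC3 (58.9 and 83.4 CPM, 1.42-fold, 1.20 to 1.67) came mostly from few cells, with 64.7% of WT and 61.1% of knockout UMIs in the 5% of cells with the most. This ratio moved with the cell filter: it was 0.50 as measured and 0.04 with all deposited barcodes, doublets included. In NCR+ ILC3 it was 0.26 (-0.04 to 0.57), and Ccr6-type ILC3 had too few UMIs for a call.

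Socs3 (ENSMUSG00000053113; chromosome 11, 117966079 to 117970047, minus strand), the inhibitor of STAT3 signalling at gp130-type receptors, separated ILC3 from ILC2. WT levels were 159 CPM (240 UMIs) in Ccr6-type and 58.7 CPM (80 UMIs) in NCR+ ILC3, 126 CPM in ILC1/NK, 4.10 CPM (11 UMIs) in ILC2 and 1.70 CPM (1 UMI) in Cpne7/Acbd7 cells. Ccr6-type ILC3 lay above T cells (128 CPM) beyond the intervals, and ILC2 and Cpne7/Acbd7 cells could not be told from B and plasma cells (2.97 CPM). In knockout ILC2 the level was 13.3 CPM (77 UMIs), 3.25-fold higher (1.72 to 6.78), but the shares of cells were 1.26% (0.41 to 2.91) and 2.19% (1.34 to 3.36), close to the 1.71% and 0.633% in B and plasma cells. In the Cpne7/Acbd7 cells the 14 knockout UMIs lay in 8 of 85 cells (9.41%), and at equal depth 2 of 84 cells (2.38%) had a UMI. In the Ccr6-type subset 240 UMIs were counted in each library (159 and 174 CPM, 1.09-fold, 0.91 to 1.31), and the share of cells was 18.3% (WT) and 13.8% in knockout, with overlapping intervals. NCR+ ILC3 was higher, at 58.7 and 89.3 CPM, 1.52-fold (ratio 0.61, 1.15 to 2.03). This call stayed past the size rule in 5 of 9 alternatives and fell short in the others, down to 0.47 relative to the median of all genes. ILC1/NK stayed under the size rule, at 126 and 185 CPM, 1.47-fold (1.16 to 1.86).

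Myeloid cells were also called for Socs3, at 51.6 CPM in WT and 138 CPM in knockout, 2.67-fold (2.06 to 3.51). Macrophages stood at 63.2 CPM (41 UMIs, 61 cells) in WT and 223 CPM (608 UMIs, 168 cells) in knockout, and 8.77% (2.91 to 19.3) and 32.7% (25.5 to 40.6) of them had a Socs3 UMI at equal depth. A single WT macrophage held 29.3% of the WT UMIs, and without the cell with the most UMIs in each library the myeloid ratio was 1.65 beside 1.42. Socs2 in myeloid cells stood at 41.6 and 89.4 CPM, 2.15-fold (1.61 to 2.93). Dendritic cells were 27 of the 88 WT and 179 of the 347 knockout myeloid cells, so the class differed in makeup between libraries. Cells of this class passed a gate for lymphoid surface proteins, and their lymphoid markers were not at 0, with T cell markers at 497 CPM (WT) and 136 CPM (knockout).

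The kinases went apart. Pim2 (ENSMUSG00000031155; chromosome X, 7878262 to 7883432, plus strand), a survival kinase of lymphocytes, was low but higher in knockout in every ILC class with enough UMIs. In ILC2 it stood at 24.9 CPM (67 UMIs) and 58.7 CPM (340 UMIs), 2.35-fold (1.81 to 3.11). In ILC3 it stood at 25.4 CPM (100 UMIs) and 65.3 CPM (312 UMIs), 2.57-fold (2.05 to 3.26), and in ILC1/NK at 77.7 and 135 CPM, 1.74-fold (1.30 to 2.34). The levels in ILC2 and in the Ccr6-type and NCR+ subsets did not overlap between libraries. The Ccr6-type subset had 29 and 102 UMIs (3.84-fold, 2.52 to 6.01) and the NCR+ subset 44 and 117 (2.23-fold, 1.57 to 3.24). The share of cells with a Pim2 UMI was 3.52% (1.94 to 5.83) and 9.84% (7.98 to 12.0) in ILC2 and 4.11% and 10.5% in ILC3, with 1.71% and 1.27% in B and plasma cells. Because Pim2 is X-linked and the pools differed in sex makeup, it was also counted in cells with Xist and no Y-linked UMI, where the ratio was 1.13 in ILC2, 1.01 in ILC3 (beside 1.36), 1.45 in Ccr6-type ILC3 (beside 1.94) and 0.65 in ILC1/NK (beside 0.80). In WT, ILC1/NK was the highest class (77.7 CPM) beyond its interval, and all classes from NCR+ ILC3 (32.3 CPM) to macrophages (10.8 CPM) overlapped their neighbours. In WT dendritic cells 0 of 27 cells had a Pim2 UMI, which allows a share of cells with a UMI of up to 11.1% (3 of 27 cells).

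Pim1 (ENSMUSG00000024014; chromosome 17, 29490753 to 29496112, plus strand), the member with the most TATTTAT sites, did not share this direction. In ILC3 it stood at 1389 CPM (5472 UMIs) in WT and 988 CPM (4718 UMIs) in knockout, a ratio of -0.49 (-0.55 to -0.44), or 1.41-fold lower (1.35 to 1.46), just short of the size rule. The NCR+ subset went from 1696 to 1203 CPM (ratio -0.50, -0.58 to -0.41) and the Ccr6-type subset from 1050 to 808 CPM (-0.38, -0.49 to -0.27). The intervals of both subsets lay apart between libraries. Relative to the median of all genes the ILC3 ratio was -0.64 and passed 1.5-fold, as did NCR+ ILC3 at -0.64. A Pim1 UMI was found in 83.8% (78.7 to 88.1) of NCR+ ILC3 from WT against 71.6% (66.3 to 76.4) from the knockout, or in 92.1% and 87.1% without thinning. Outside ILC3 the ratios were smaller, at -0.10 in ILC2 (627 and 584 CPM), -0.14 in ILC1/NK (1921 and 1739 CPM) and -0.02 in myeloid cells, while Cpne7/Acbd7 cells stood at 0.19 (0.02 to 0.36; 944 and 1076 CPM). ILC1/NK was the highest class in each library and ILC2 the lowest ILC class, both apart from their neighbours. Even B and plasma cells showed a Pim1 UMI in 41.0% of WT and 54.4% of knockout cells at equal depth, so a UMI of Pim1 did not mark a class.

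The Rasl11a/Hmgn3 subset of ILC3 had 45 WT cells, too few for a call, and its values are given as measured. Pim1 stood at 1490 CPM in WT and 877 CPM in knockout there (ratio -0.76), Stat4 at 118 and 205 CPM, and Socs2 at 56.0 and 45.0 CPM. B/plasma markers stood at 213 CPM in its WT and 5882 CPM in its knockout cells, and their part in these values was not tested.

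Set beside the sites shown above, the ratios of members with and without TATTTAT overlapped in range, and a link to the sites was not tested. The 4 members with TATTTAT in the 3′ UTR had ILC3 ratios of -0.49 (Pim1), 0.46 (Cish), 0.50 (Socs2) and 0.15 (Socs3), and the 5 without had 0.89 (Stat3), 0.36 (Stat4), 0.37 (Stat5a), 0.05 (Socs1) and 1.36 (Pim2). In ILC2 the members with sites stood at -0.10, 0.75, -0.15 and 1.70 in the same order, and those without at 0.72, 0.00, -0.01, 0.38 and 1.24. Cish and Socs3, which share the GAS-type motif, were both higher in ILC2, but Cish had 428 WT UMIs there and Socs3 11. These matches describe letters in a window, and factor binding was not measured.

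Other kinases and STATs of the pathway were read in the same way. Stat2, which acts in type I interferon signalling, had a ratio of 0.76 in ILC2 and 0.85 in ILC3. By subset it stood at 1.01 in Ccr6-type but at 0.09 (-0.60 to 0.78) in NCR+ ILC3. Jak1 ran from 0.22 in myeloid cells to 0.61 in Cpne7/Acbd7 cells without reaching the rule outside the latter, and Jak2 was 0.30 in ILC2 and 0.56 in ILC3 but past the rule in Ccr6-type ILC3 (0.90), NCR+ ILC3 (0.65), Cpne7/Acbd7 cells (0.93) and myeloid cells (0.88). Jak3, the kinase of the common gamma chain, stood at 0.21 in ILC2 and 0.11 in ILC3 and was past the rule in ILC1/NK (0.90, 26 and 44 UMIs). Tyk2, a kinase of the IL-12, IL-23 and type I interferon receptors, stood at 0.29 in ILC2 and -0.11 in ILC3 and was past the rule in Cpne7/Acbd7 cells (1.35, 17 and 38 UMIs). Stat5b, the partner of Stat5a, stood at 0.08 in ILC2 and 0.40 in ILC3, and Stat6, the STAT of IL-4 and IL-13, at 0.50 and 0.13.

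Of 13 other feedback genes (SOCS, PIM, PIAS and phosphatase genes), 3 were higher and 1 lower in ILC2, and 2 higher and 0 lower in ILC3. Of all genes, 17.3% and 15.3% were higher in these classes, and 3.08% and 4.2% lower. The lower feedback gene was Pim3, at 148 CPM in WT and 96.6 CPM in knockout ILC2 (ratio -0.62, -0.81 to -0.43). The 3 PIM kinases thus stood at -0.10, 1.24 and -0.62 in ILC2. Socs4 was 0.27 in ILC2 and 0.37 in ILC3, and Socs5, Socs6 and Socs7 lay between 0.09 and 0.56 in these classes. In ILC1/NK Socs4 was past the rule (1.11, 0.42 to 1.84, 27 and 53 UMIs). Of 15 receptor chains with enough UMIs, 1 was higher and 1 lower in ILC2, and 1 higher and 0 lower in ILC3. Of the genes known to be induced through STATs, 1 of 9 was higher and 1 lower in ILC2, and 4 of 10 higher and 1 lower in ILC3. With so few genes in each list, these counts are read as descriptions. Most counts of higher genes lie near or below the shares of all genes, but the 4 of 10 in ILC3 lie above. Each count of 1 lower gene is above the share of all genes, which 1 gene is bound to be in lists this short. Among the genes known to be induced through STATs, the cell cycle inhibitor Gadd45g (36.8 and 97.8 CPM, ratio 1.41) and the NF-κB cofactor Bcl3 (13.5 and 29.7 CPM, 1.14) were higher in ILC3. The AP-1 gene Junb was lower, at -0.63 in ILC2 and -0.76 in ILC3. By subset, Gadd45g stood at 1.58 in Ccr6-type but at 0.13 (-0.43 to 0.70) in NCR+ ILC3, and Bcl3 at 1.13 and 0.94. Irf1, an interferon-induced transcription factor, stood at 1.35 in Ccr6-type ILC3 (93.6 and 239 CPM). In myeloid cells the cytokine gene Osm stood at 10.8 and 33.4 CPM (ratio 1.63, 0.82 to 2.56), and Ptpn1, a phosphatase that acts on JAKs, at 130 and 261 CPM (1.01, 0.77 to 1.25).

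For each member the 3 genes with the most similar level pattern were taken by Pearson correlation of log2(CPM + 1) over 17 class-by-library sums, among 8682 genes; the sums share 2 libraries and the cell classes, so r is a description. For Socs2 they were Trdv4 (r = 0.90), the class marker Cpne7 (0.88) and Prc1 (0.88), and Trdv4 was still among the 3 without the B and plasma sums (0.87). For Pim1 they were Ppp1r3b (0.95), AC163354.1 (0.93) and Icam1 (0.93), with Ppp1r3b named again without B and plasma cells (0.90). Socs3 gave Mief1 (0.88), Grina (0.88) and Necap1 (0.87). For Pim2 they were Cr1l (0.94), Whamm (0.93) and Cysltr2 (0.92). For Stat3, Stat4, Stat5a, Socs1 and Cish r lay between 0.96 and 0.99, and without the B and plasma sums, where these genes are low, the highest was 0.86 for Stat5a (Foxo1), 0.88 for Stat3 (Ttc13), 0.91 for Stat4 (Sept6), 0.96 for Cish (AI504432) and 0.97 for Socs1 (Gimap8).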

How the data were processed

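The files hold raw counts of UMIs per gene and cell barcode, made by the authors with Cell Ranger (version 3.1.0 per the file headers) against mm10, per the submitters' processing notes; the labels name a Chromium Single Cell 3′ kit. No columns of other samples were present. Cells with fewer than 500 genes or over 10% mitochondrial UMIs and Scrublet doublets (scanpy 1.11.5) were removed. A class needed a UMI of at least 3 of its 8 markers and more than any other list (7 for dendritic cells, since 1 marker was not matched). ILC classes were allowed at most 2 T cell markers, and Cpne7/Acbd7 cells needed both genes or 3 UMIs of either. UMIs were summed per class and scaled to CPM, and exact intervals came from scipy 1.17.1 and numpy 2.4.6 (Python 3.11.15). The computation was tested on simulated data. All members are named in every class. Other pathway genes are named if their interval lies past 1.5-fold, and JAK, STAT, SOCS and PIM genes in any case. Motifs were searched in RefSeq promoters and GENCODE M21 transcripts. The members, gene lists and class markers were chosen with earlier results of these data known. Alternatives covered gates, filters, cell weights, scaling, sex-linked UMIs, depth and minimum UMIs. A gene of the list of other kinases and STATs, and the counts over that list, are not reported here.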

Additional observations from a re-analysis of the deposited data

Results flagged for a closer look

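The ratio of Socs2 went in opposite directions in ILC2 and in other classes, each with an interval clear of 0. Its log2 ratio exceeded that in ILC2 by 0.65 in ILC3, 0.64 in Cpne7/Acbd7 cells, 1.11 in ILC1/NK and 1.25 in myeloid cells. With all deposited barcodes, doublets included, the Socs2 ratio in ILC3 was 0.04. No named ILC3 subset had an interval clear of 0. The ratio was 0.26 (-0.04 to 0.57) in NCR+, 0.32 (-0.59 to 1.24, 21 and 24 UMIs) in Ccr6-type and -0.32 (-1.51 to 0.96, 10 and 18 UMIs) in Rasl11a/Hmgn3 ILC3. ILC3 with markers of both subsets had macrophage markers at 61.2 CPM (WT) and 1616 CPM (knockout), and their part in the ILC3 ratio was not tested. Pim1 had a ratio above 0 in Cpne7/Acbd7 cells and below 0 in ILC2, ILC3 and ILC1/NK, each with an interval clear of 0, and the differences were 0.29 from ILC2, 0.68 from ILC3 and 0.33 from ILC1/NK. With 1 library per genotype these differences were not tested.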

How the results depend on the processing

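Of the 59 ratios with enough UMIs, 19 were called, all 19 kept their sign under every alternative run for them, and 12 stayed past 1.5-fold in each. Of the 40 others, 16 turned sign under at least 1 alternative. Relative to the median of all genes, the members higher were 2 in ILC2 (Socs3 and Pim2), 2 in Ccr6-type ILC3, 2 in NCR+ ILC3 (without Socs3) and 0 in Cpne7/Acbd7 cells, and 1 was lower (Pim1) in ILC3 and 1 in NCR+ ILC3. With ribosomal protein and mitochondrial genes left out of the total, 0 were higher in Cpne7/Acbd7 cells. With at least 200 UMIs, 2 of 6 were higher in Ccr6-type ILC3 and 0 of 2 in Cpne7/Acbd7 cells, since fewer members could be called. With no T cell marker UMI allowed, 4 were higher in ILC3, and ILC2, NCR+ ILC3, Cpne7/Acbd7 cells and ILC1/NK had under 50 cells in a library and gave no value. With cells weighted equally, 4 were higher in ILC1/NK. For the weightings and gates the cause was not tested. Of 63 differences in the share of cells with a UMI, 11 moved without thinning and 6 at 1000 UMIs. The limits on other lineages, the weighting of ILC3 subsets and the alike genes without B and plasma cells were added after seeing the data. No paired analysis was possible because each genotype has 1 pooled library and the result comes from no test.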
